A study of Danio rerio with 8 samples.

Results

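The genes described here are the Dact and Prickle regulators and the non-canonical Wnt genes of gastrulation movement, namely wnt11, wnt5b, gpc4, vangl2, prickle1a, prickle1b, dact1 and dact2. They were chosen by gene symbol, with their responses to the inhibitor already known, in a table of 33843 assembled loci. The 8 genes take up 9 rows of that table, because vangl2 is listed in 2 rows, and 8 of these rows had been tested by the authors. Since the choice was made with the values known, the members' levels, changes and calls below are a description of the genes and no evidence for a pattern among them.

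RNA-seq was done on whole zebrafish embryos collected at the dome stage, in 2 groups of 2 samples. Treated embryos were kept from the 2-cell stage in medium with 20 µM SU5402, a small molecule that blocks the kinase activity of fibroblast growth factor (FGF) receptors and is known to act on some other receptor tyrosine kinases. Controls received an equal volume of the solvent DMSO over the same time, so both groups were exposed to DMSO, and neither strain, clutch nor the number of embryos per sample is given. The 4 ATAC-seq samples of the series were not analysed here. The authors pooled both replicates into 1 FPKM value (fragments mapped to a locus, scaled to its transcript length and to the size of the library) per condition, so no value below carries a replicate error and depth per sample is unknown.

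Non-canonical Wnt signalling, which includes the planar cell polarity pathway, runs from Wnt ligands through Frizzled receptors and Dishevelled to the actin cytoskeleton without stabilising β-catenin. In the zebrafish gastrula it polarises cells so that they converge on the midline and extend the body axis, and embryos mutant for wnt11 (silberblick), wnt5b (pipetail), gpc4 (knypek) or vangl2 (trilobite) have a short, broad axis. The dome stage lies before these movements start, soon after zygotic transcription begins.

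In SU5402 embryos the transcripts of 3 of the 8 genes were lower by the authors' call, those of dact2, prickle1b and dact1, and none was higher. The authors' deposited table made no call for the ligand gene wnt11, the glypican gene gpc4, the membrane component gene vangl2 or the Prickle paralog prickle1a, and wnt5b had not been tested. A call means a deposited q-value of at most 0.05, which 2.06% of all 12757 tested loci met in the direction of lower expression and 3.58% in the direction of higher expression, 5.64% in all. Because the rule took the genes with these values in view, nothing is read from the members' count against those shares. The deposited q is smaller than a Benjamini-Hochberg adjustment of the same p-values over the 12757 tested loci. For dact1 and dact2, with a deposited Cuffdiff p of 5e-05, it was 0.000383, against 0.00591 by that adjustment. The rate of false calls may therefore be above the 0.05 that the threshold names. In whole embryos, fewer cells expressing a gene and less RNA per cell cannot be told apart.

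**Figure D1:**
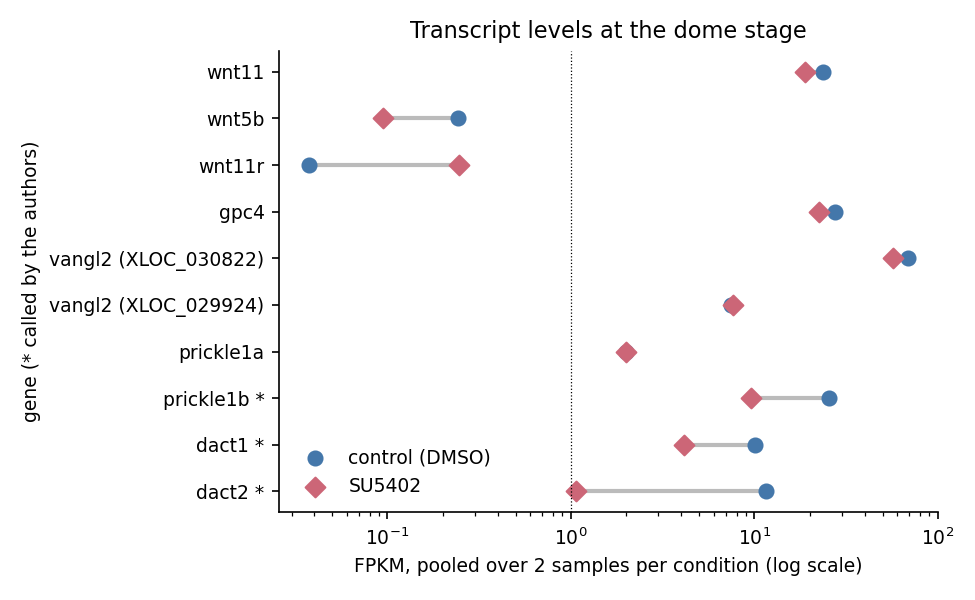
Pooled FPKM of each gene (log scale) in control (blue circles) and SU5402 (red diamonds) embryos, ordered from ligands to Dishevelled-binding proteins, with a dotted line at 1 FPKM and an asterisk at genes called by the authors. The lines of dact2, prickle1b and dact1 are long, as are those of the untested wnt5b and wnt11r, which lie below 1 FPKM. Those of wnt11, gpc4, vangl2 and prickle1a are short or hidden by their points.

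Among the ligands, wnt11 was the abundant one. It had 23.5 FPKM in control and 18.8 FPKM in SU5402 embryos, so 79.8% of the control level was present under the inhibitor. This log2 fold change of -0.33 had q = 0.298 in the authors' deposited table and was not called. The current reference table lists the names slb and wnt11 under wnt11f2, so the row called wnt11 by the authors bears the symbol of the silberblick gene. The ligand gene wnt5b was very low at 0.241 FPKM in control and 0.0942 FPKM in SU5402 embryos and was not tested. The second Wnt11-type gene, wnt11r, now named wnt11 in the reference table, was listed at 0.0374 and 0.244 FPKM and was not tested either. Both wnt5b and wnt11r were thus under 1 FPKM in each condition, and no direction is read from their ratios.

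Across the whole Wnt family, counted after the values were seen, the table held 23 rows, of which 2 had been tested. These were wnt11 and wnt8a, the latter a ventrolateral ligand of the β-catenin branch with 26.5 FPKM in control and 31.7 FPKM in SU5402 embryos. The authors' deposited table made no call for wnt8a (q = 0.577). Among the other 21 rows the highest level was 0.654 FPKM, in a row that joins wnt16 with cped1 and may hold reads of either. All 21 were under 1 FPKM in both conditions, and 7 of them were listed at 0 in both. Per transcript length, wnt11 and wnt8a therefore made up 45.3% and 50.9% of the summed Wnt FPKM in control, and 35.7% and 60.2% in SU5402 embryos. The sum itself was 52.0 FPKM in control and 52.6 FPKM in SU5402 embryos.

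The glypican gene gpc4 encodes a cell surface heparan sulphate proteoglycan that aids Wnt11 signalling in zebrafish. It had 27.4 FPKM in control and 22.5 FPKM in SU5402 embryos, 82.0% of the control level. This change (log2 -0.29) had q = 0.281 in the authors' deposited table and was not called.

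The four-pass membrane protein Vangl2 recruits Prickle to the cell membrane. Its gene had 2 rows over the same assembled region. The more abundant row (XLOC_030822) had 68.7 FPKM in control and 57.2 FPKM in SU5402 embryos, the highest level of all the members in both conditions. The other row (XLOC_029924) had 7.46 and 7.63 FPKM. Neither row was called, with q of 0.266 and 0.979 in the authors' deposited table. Reads of the region may be divided between the rows, and the sum of both was 76.2 FPKM in control and 64.8 FPKM in SU5402 embryos, or 85.1% of control.

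Prickle proteins are cytoplasmic LIM domain proteins that bind Vangl on one side of a polarised cell and can also bind Dishevelled. Of the zebrafish paralogs, prickle1a is known for its part in convergence and extension and prickle1b for its part in the migration of facial motor neurons. At the dome stage prickle1b was the more abundant paralog, at 25.4 FPKM in control and 9.62 FPKM in SU5402 embryos. By the call of the authors' deposited table, prickle1b fell 2.64-fold (log2 -1.40, q = 0.0156), leaving 37.8% of the control level. By contrast prickle1a stood at 1.99 FPKM in control and 2.00 FPKM in SU5402 embryos and had q = 0.984 in the authors' deposited table, without a call. The excess of prickle1b over prickle1a therefore went from 12.8-fold in control to 4.80-fold in SU5402 embryos, and the summed FPKM of the pair from 27.4 to 11.6.

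The fall of prickle1b rests on the authors' q-value. A Benjamini-Hochberg adjustment of the authors' p-values over all 12757 tested loci, the table-wide adjustment, gave prickle1b an adjusted p of 0.122, above 0.05. With the table-wide adjustment 0.651% of tested loci were called lower and 0.996% higher, 1.65% in all. The row also shares its assembled region of 102994 bases with 4 other rows, among which reads may have been divided. Of these, pphln1 had 105 and 138 FPKM, zcrb1 had 25.6 and 29.6 FPKM and yaf2 had 13.5 and 12.6 FPKM in control and SU5402 embryos. The authors' deposited table called none of these 3, and the fourth, gxylt1b, was under 1 FPKM and not tested.

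Dact proteins (Dapper, Frodo) are scaffolds that bind Dishevelled and adjust both branches of Wnt signalling. Zebrafish dact2 is also known to promote the breakdown of Nodal receptors. The 2 Dact genes were almost level in control embryos, with 11.5 FPKM for dact2 and 10.1 FPKM for dact1. Under SU5402, dact2 was at 1.07 FPKM and dact1 at 4.16 FPKM, so both were lower and dact2 by far the more. In the authors' deposited table dact2 fell 10.8-fold (log2 -3.43) and dact1 fell 2.42-fold (log2 -1.28), each with q = 0.000383. Of the control level, 9.27% was present for dact2 and 41.3% for dact1.

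The ratio of dact2 to dact1 went from 1.14 in control to 0.257 in SU5402 embryos, and dact2 supplied 53.3% and 20.4% of their summed FPKM. That sum was 21.6 FPKM in control and 5.23 FPKM in SU5402 embryos, 4.13-fold lower. Both genes passed the table-wide adjustment with an adjusted p of 0.00591, computed from a deposited p of 5e-05. That p is the smallest in the authors' deposited table and is held by 108 loci, so it does not rank them. With a pseudocount of 1 FPKM the log2 fold change of dact2 was -2.60, since its level under SU5402 lay near 1 FPKM. No value per replicate was available to test whether dact2 and dact1 differed in their response.

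**Figure D2:**
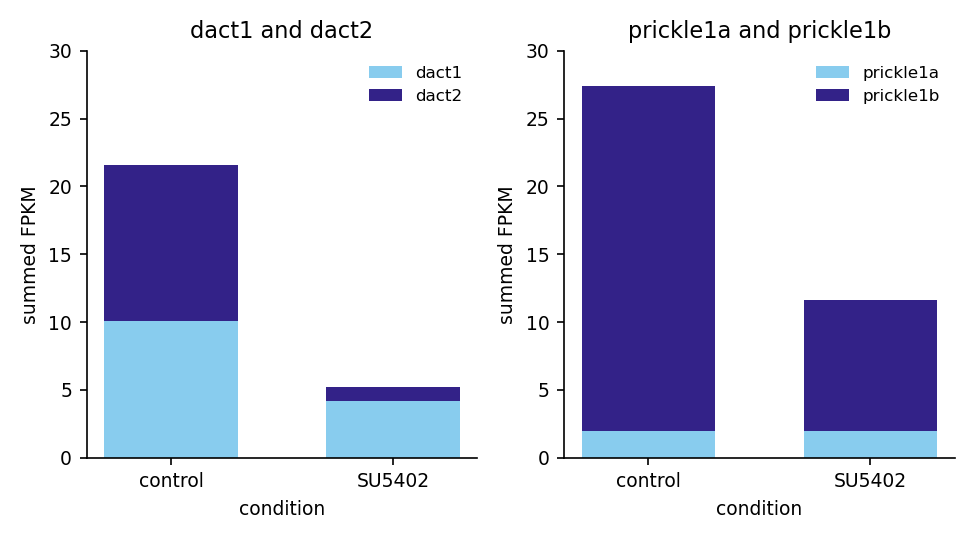
Stacked bars of pooled FPKM for dact1 with dact2 (left) and prickle1a with prickle1b (right) in control and SU5402 embryos, without error bars because each condition has 1 pooled value. The dact2 share of the left bar goes from 53.3% to 20.4%, and the prickle1a part of the right bar stays at 1.99 and 2.00 FPKM.

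The order of the members by level differed between the conditions. In control it ran from vangl2 through gpc4, prickle1b, wnt11, dact2, dact1 and prickle1a to wnt5b, counting the more abundant vangl2 row. In SU5402 embryos wnt11 stood above prickle1b, and dact2 stood below both dact1 and prickle1a. Levels are per transcript length and carry no replicate spread, so close neighbours in this order, such as gpc4, prickle1b and wnt11 in control, cannot be separated. Among all tested loci, dact2 was at percentile 53.8 of control FPKM and at percentile 0.980 of SU5402 FPKM. No tested locus was below 0.947 FPKM in its higher condition, and 21085 loci that were not tested are left out. These percentiles are therefore ranks among tested loci and not among all transcripts. The percentile of dact1 went from 50.4 to 25.2 and that of prickle1b from 72.9 to 48.2. For wnt11 it was 71.3 and 64.8, for gpc4 74.5 and 69.0 and for the more abundant vangl2 row 89.7 and 86.2.

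Placed among all tested loci by fold change, dact2 was in the lower tail. A log2 fold change as low as that of dact2 was listed for 23 tested loci (0.180%), of which the authors' deposited table called 12. As low as prickle1b were 192 loci (1.51%), 74 of them called, and as low as dact1 were 235 loci (1.84%), 88 of them called. Among the 263 loci called lower in the authors' deposited table, dact2 ranked 12th, prickle1b ranked 74th and dact1 ranked 88th. These counts and ranks include loci listed at 0 FPKM in SU5402 embryos, whose ratio has no finite log2 and was placed lowest. The median fold over all loci called lower was 1.98.

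**Figure D3:**
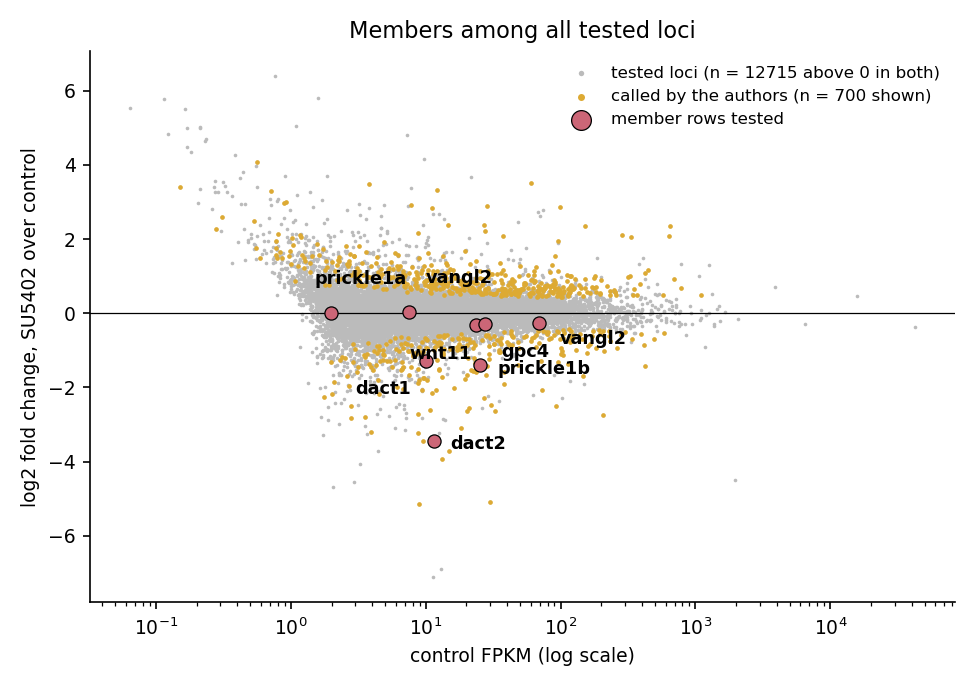
Log2 fold change of SU5402 over control against control FPKM (log scale) for the 12715 tested loci above 0 in both conditions (grey), with the 700 of them called by the authors in yellow and the tested member rows in red. The points of wnt11, gpc4, vangl2 and prickle1a lie inside the grey cloud, and dact2, at -3.43, lies below the dense part of the cloud among scattered loci, some of them lower still.

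The genes nearest in level were taken as the 3 with the smallest Euclidean distance in log2(FPKM + 1) over the 2 conditions, among loci with a single symbol, an unshared region and at least 1 FPKM in control. For dact2 they were gsc, a homeobox gene of the dorsal organizer, chd, which encodes the BMP antagonist chordin, and ca9, a carbonic anhydrase gene. Their distances from dact2 were 0.294, 0.340 and 0.385. The authors' deposited table listed gsc at 9.50 and 0.866 FPKM, chd at 14.8 and 1.13 FPKM and ca9 at 8.68 and 0.926 FPKM, and marked all 3 as lower. For dact1 the nearest were ndufb11, arl4ab and metap1d at distances of 0.0156, 0.0595 and 0.150, and the authors' deposited table marked all 3 as lower. For prickle1b they were histh1l, vps28 and ogt.1 at 0.176, 0.290 and 0.311, of which the authors' deposited table called histh1l alone. Likeness over 2 conditions is a likeness of level and fold only. Since these genes were picked by their levels in both conditions, they share the member's fold by choice. Nothing is therefore read from their calls beside the 2.06% of all tested loci called lower.

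On the Zv9 assembly, dact2 lay at chromosome 13 from 44029503 to 44036259 and dact1 at chromosome 17 from 11022874 to 11032978. The region of prickle1b was at chromosome 4 from 12957297 to 13060290, that of prickle1a at chromosome 25 from 383061 to 417239 and that of vangl2 at chromosome 7 from 6167916 to 6219494. The region of wnt11 was at chromosome 5 from 38113768 to 38120280, that of wnt5b at chromosome 4 from 7494280 to 7627025 and that of gpc4 at chromosome 14 from 31960037 to 32021565. These are whole assembled loci with exons and introns together.

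Few tested loci lay near the 3 called genes. Within 200 kb between region centres, a distance chosen after the data were seen, dact1 had 3 other tested loci with log2 fold changes from 0.10 to 0.18. The single tested locus near dact2 was eif3s6ip, at 27.3 and 27.7 FPKM. Around prickle1b, outside its own region, 4 tested loci had log2 fold changes from 0.32 to 1.72. The authors' deposited table called none of these loci in either direction, beside 5.64% of all tested loci, and with 8 loci nothing is read from that count. Outside their own regions, 8, 4, 2, 2 and 10 other loci had been tested near wnt11, gpc4, vangl2, wnt5b and prickle1a. The authors' deposited table called none of them. The assembled region of wnt5b also holds fbxl14b, which was tested at 9.86 and 6.65 FPKM in control and SU5402 embryos. It was not called (q = 0.120 in the authors' deposited table).

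**Figure D4:**
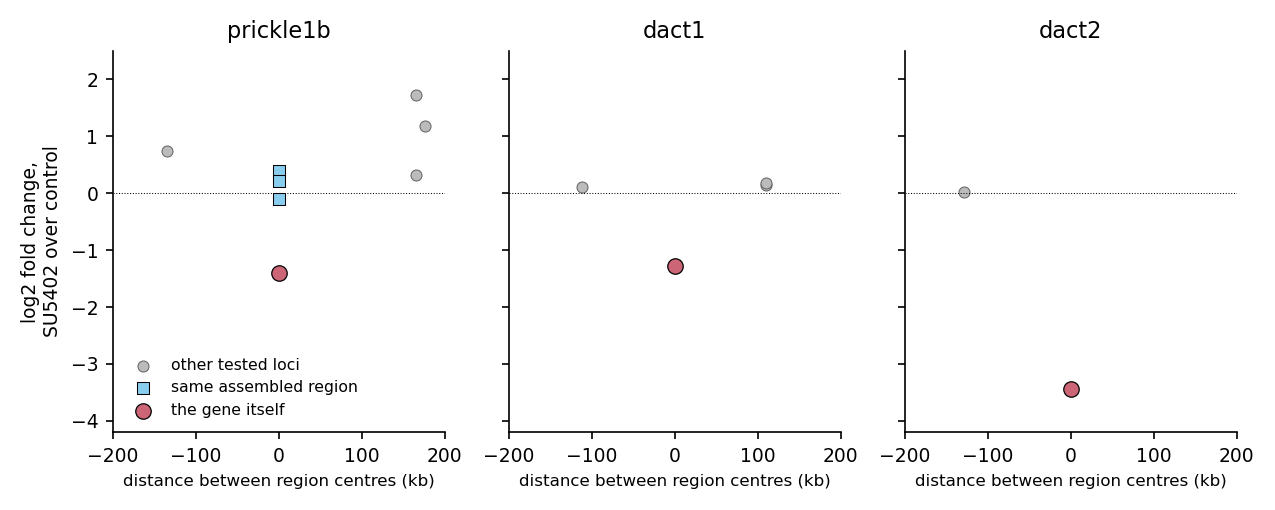
Log2 fold change of SU5402 over control for prickle1b, dact1 and dact2 (red circles) and for other tested loci within 200 kb (grey circles), against the distance between region centres in kb. Blue squares at 0 kb are the 3 tested rows in the same assembled region as prickle1b. Each red point lies below every other point in its panel, but the genes shown were chosen because they were called lower, so nothing is read from this.

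To see other genes of the members' pathway, 98 symbols in 4 lists were looked up, with the members themselves left out. The lists were of ligands and receptors, polarity core and Dishevelled genes, cytoskeletal effectors and other gastrulation movement genes. Of the symbols 83 were found, with symbols that matched the same row counted once. Rows were taken as measured if tested by the authors and at 1 FPKM or above in the higher of the 2 conditions, which 60 rows of 57 genes did. In the authors' deposited table none of the 60 was called lower and 2 were called higher (3.33%), beside 2.06% and 3.58% of the 12756 loci that passed the same filter. The members called lower, dact2, prickle1b and dact1, were not among the 60, so the absence of lower calls holds only outside the members. At an unadjusted p under 0.05 from the authors' deposited table, 1 of the 60 was lower and 4 were higher. The share of all loci at that p was not computed, so nothing is read from this count. With the table-wide adjustment none of the 60 was called in either direction, beside 0.651% of all tested loci lower and 0.996% higher. Equal numbers had a log2 fold change below and above 0, 30 each, beside 5816 below and 6940 above among the 12756 loci. Their median was 0.02, beside 0.04 for all loci under the filter, and -0.01 when rows below 5 FPKM in both conditions were left out.

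**Figure D5:**
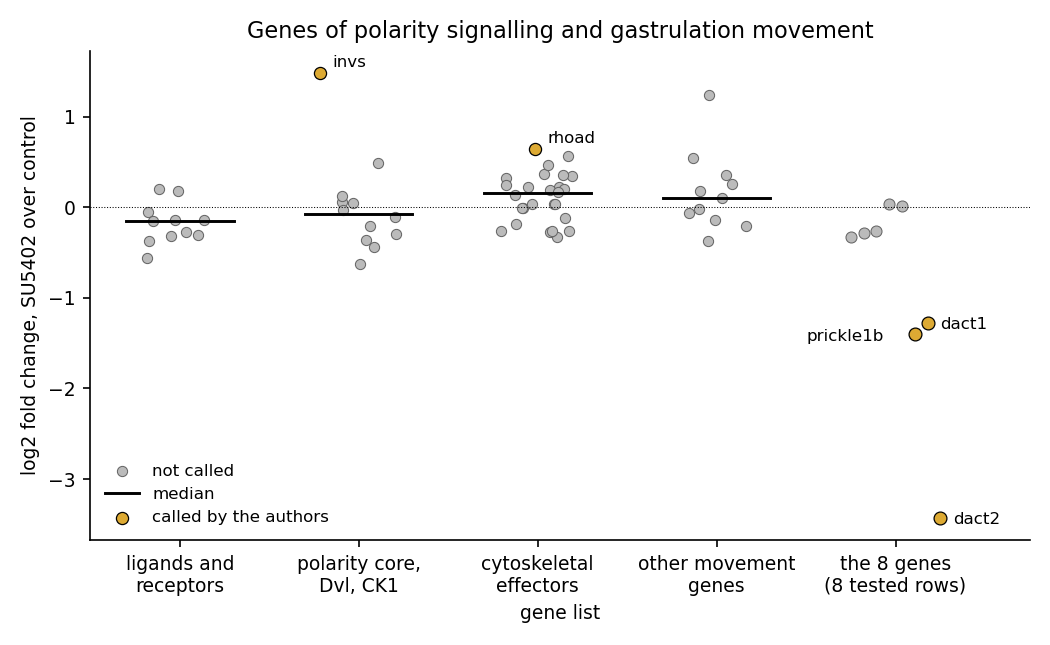
Log2 fold change of SU5402 over control for the 60 measured rows of the 4 pathway lists and the 8 tested member rows (right), with calls by the authors in yellow and a bar at each list's median. The pathway rows lie between -0.63 and 1.48, and dact2, prickle1b and dact1 lie below all of them. The members were chosen with their values known, so nothing is read from this.

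Of 11 measured ligand, receptor and co-receptor rows, 9 had a log2 fold change below 0, beside 5816 of the 12756 loci under the filter. The rows were of 10 genes, as PTK7 was listed more than once, and the members wnt11, wnt5b and gpc4 were left out. Since the list was drawn up with earlier results of these data known, nothing is read from this count. None of the 11 was called in the authors' deposited table, and their median was -0.15. The syndecan gene sdc4, a proteoglycan known from Xenopus to act in polarity signalling, had 210.1 FPKM in control and 162 FPKM in SU5402 embryos (unadjusted p = 0.0423, q = 0.113 in the authors' deposited table). The secreted R-spondin gene rspo3 had 124 and 99.3 FPKM, and the receptor gene fzd3b had 3.33 and 2.25 FPKM. The q of both was above 0.05 in the authors' deposited table.

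In the polarity core and Dishevelled list, 12 rows were measured and the median was -0.07. The members vangl2, prickle1a, prickle1b, dact1 and dact2 were left out of this list. The 1 call was invs, or 8.33% of the rows, beside 3.58% of all loci under the filter called higher. With 12 rows nothing is read from that share. The authors' deposited table listed invs (inversin), which encodes a ciliary protein that binds Dishevelled, at 0.591 FPKM in control and 1.65 FPKM in SU5402 embryos (q = 0.0158), a rise of 2.79-fold at a level near the floor of testing. Its log2 fold change was 1.48, and 0.74 with a pseudocount of 1 FPKM. The paralog of vangl2, vangl1, had 2.45 and 1.58 FPKM, and prickle3 had 4.72 and 6.62 FPKM. The abundant scaffold gene scrib had 78.6 and 67.9 FPKM and the Dishevelled kinase gene csnk1da had 56.7 and 46.0 FPKM. For these 4 genes the authors' deposited table made no call.

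Of 26 measured cytoskeletal effector rows, 17 had a log2 fold change above 0, beside 6940 of the 12756 loci under the filter. This list too was drawn up with earlier results known, so nothing is read from the count. The median of the 26 was 0.15 and the 1 call was rhoad. The authors' deposited table listed rhoad, a RhoA-type small GTPase gene, at 121 FPKM in control and 189 FPKM in SU5402 embryos, a rise of 1.56-fold (q = 0.0105). It shares its region with other rows, and its adjusted p in the table-wide adjustment was 0.0923. Abundant members that the authors' deposited table did not call were cfl1 (cofilin), at 691 and 577 FPKM, and rac1, at 368 and 306 FPKM. By absolute log2 fold change the largest uncalled values were 0.57 for gna13a and 0.46 for daam1b. The G protein subunit gene gna13a had 28.0 and 41.4 FPKM, and the formin gene daam1b had 1.35 and 1.87 FPKM.

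The authors' deposited table called none of the 11 measured rows of other gastrulation movement genes, whose median was 0.11. The cadherin gene cdh1 (E-cadherin) had 191 FPKM in control and 244 FPKM in SU5402 embryos and cdh2 (N-cadherin) had 4.87 and 7.12 FPKM. Their unadjusted p in the authors' deposited table was 0.0387 and 0.0289, and their q was 0.105 and 0.0837. The kinase gene yes1 had 67.6 and 64.8 FPKM, and the cytoskeletal linker gene macf1 had 1.69 and 3.99 FPKM. Both had q above 0.05 in the authors' deposited table.

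Transcripts of 3 FGF targets were also examined in the same embryos. They were chosen with earlier results of these data known, so their levels are no independent check of the inhibitor. Other FGF targets were not examined, so nothing is said of FGF targets as a whole. In the authors' deposited table dusp6 went from 18.2 to 2.13 FPKM and etv4 from 20.3 to 6.41 FPKM, both called lower, and spry4 stood at 2.92 and 0.125 FPKM without a call (q = 0.0523). Blastoderm markers summed to 1802 and 1805 FPKM and germ plasm markers to 142 and 144 FPKM in control and SU5402 embryos, with no member called. The largest part of the blastoderm sum was nanog, at 1106 and 1178 FPKM, while pou5f1 had 461 and 405 FPKM. The largest part of the germ plasm sum was vasa, at 91.4 and 88.4 FPKM, while nanos3 had 20.9 and 29.9 FPKM. The 4 enveloping layer markers summed to 276 and 331 FPKM, with 1 called lower and 1 higher in the authors' deposited table. Of the 3 yolk syncytial layer markers, apoeb went from 328 to 661 FPKM and was called higher in the authors' deposited table. The other yolk syncytial layer markers were not called, with 104 and 94.5 FPKM for mxtx2 and 27.6 and 21.6 FPKM for mxtx1, so the rise of the summed level from 459 to 777 FPKM came from apoeb. Of 9 rows of later tissue markers, 1 (elavl3) reached 1 FPKM in either condition and 4 were listed at 0 in both. The part of these differences in the falls of dact2, dact1 and prickle1b was not tested.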

How the data were processed

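RNA-seq values came from 1 table of the authors' own comparison. Per the submitters' processing notes, TopHat2, Picard, Cufflinks and Cuffdiff were used with the Zv9 (danRer7) build. Tool versions were not given in the sources used here. The deposited FPKM is, per the file headers, 1 value per condition, and the deposited log2 fold change is SU5402 over control without a pseudocount. The p-value and q-value are the deposited ones, used unchanged, and the deposited test score was not used. FPKM is relative to each library, so a change of total RNA would not show. As both replicates are pooled, no test across samples could be run, and no gene's own spread between samples can be seen. The p-values of the authors are those of Cuffdiff on 2 samples per group, whose spread may be technical.

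The table has 33843 loci, of which 12757 were tested and 27.1% of these share their region with another row. Over the 13788 loci with no condition below 1 FPKM, the median log2 fold change was 0.04. A Benjamini-Hochberg adjustment over all tested loci was added beside the authors' q and checked on simulated data (Python 3.11.15, pandas 2.3.3, numpy 2.4.6). Symbols were matched exactly, or through older names in the reference table. Starts are given 1-based.

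The members and lists were chosen with earlier results of these data known. Named were all members and wnt11r, every called pathway gene, 3 FGF targets, and the 3 nearest genes of each called member. Per list, the 2 uncalled genes with the highest control FPKM and the 2 with the largest absolute log2 fold change were also named. The named rows of region mates, of other family members (wnt8a, gpc6l and others), of neighbours and of marker lists were added after their values were seen. Genes nearest in level used a pseudocount of 1 FPKM. Alternatives were a stricter q of 0.01, minimum levels, pseudocounts of 1 and 0.1 FPKM, unshared regions and centring. Centring used the median of the 13788 loci with no condition below 1 FPKM.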

Additional observations from a re-analysis of the deposited data

How the results depend on the processing

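No paired analysis was possible because the table holds 1 pooled value per condition, so neither a fit by replicate number nor leaving out a replicate was run. The authors' call gave 3 members lower. The count was 2 with the table-wide adjustment, at a q of 0.01 and over unshared regions, where prickle1b was the one left out each time, and 3 at 5 FPKM or more and without a filter. No member was called higher, and no pathway gene outside the members was called lower, under any of these settings. The count of pathway genes called higher, 2 as reported, was 0 with the table-wide adjustment and at a q of 0.01, 1 at 5 FPKM or more (rhoad) and 1 over unshared regions (invs). The pathway genes' median log2 fold change was 0.0151 as reported, 0.0146 with a pseudocount of 1 FPKM and -0.0142 at 5 FPKM or more. Centred on the median of the 13788 loci with no condition below 1 FPKM, the pathway median was -0.0223. With the same centring, prickle1a went from 0.0118 to -0.0255 and the less abundant vangl2 row from 0.0320 to -0.0053. Other members kept their sign with each pseudocount and with centring, though wnt5b moved from -1.35 to -0.18 and wnt11r from 2.71 to 0.26 with a pseudocount of 1 FPKM. Without values per replicate, the precision of the members' folds is unknown.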

Other observations

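Families of the members were counted whole after their values were seen, and their counts are read beside the 2.06% of all tested loci called lower and the 3.58% called higher, 5.64% in all. With so few tested rows per family, nothing is read from the counts against these shares. Of 6 glypican rows, 5 had been tested, and the authors' deposited table called 1, gpc6l, which was higher in SU5402 embryos. It went from 2.12 to 4.68 FPKM, 2.20-fold (q = 0.0212), and had an adjusted p of 0.149 in the table-wide adjustment. By summed FPKM, gpc4 was the most abundant glypican in both conditions, with 47.7% of the family total in control and 40.7% in SU5402 embryos.

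Of 14 Frizzled rows, 7 had been tested and none was called in the authors' deposited table. The receptor gene fzd7b led the family at 66.6 FPKM in control and 60.2 FPKM in SU5402 embryos, followed by fzd7a at 22.7 and 26.0 FPKM. The lowest log2 fold change among tested receptors was that of fzd5, at -0.74, with 4.36 and 2.61 FPKM (q = 0.138 in the authors' deposited table). The Prickle family had 4 tested rows, and the authors' deposited table called prickle1b alone. Its paralog prickle2 had 4.15 and 3.23 FPKM. Summed over the family, Prickle FPKM was 36.3 in control and 21.5 in SU5402 embryos.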
